A study of Mus musculus with 8 samples.

Results

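The miR-146 family of the mouse consists of 2 hairpins, miR-146a and miR-146b, each of which gives a 5p and a 3p arm. These 4 mature miRNAs were taken by name from tables that list 1907 mature miRNAs, and all 4 were present (mmu-miR-146a-5p, mmu-miR-146a-3p, mmu-miR-146b-5p and mmu-miR-146b-3p, written without the species prefix below). They were followed in wild-type bone marrow-derived macrophages, primary cells grown for 6 days from bone marrow precursors in L929 supernatant, a cell-conditioned medium used as a source of macrophage colony-stimulating factor. The labels give the animals' age as 8 to 12 weeks and give no strain. Small RNA libraries were made from 3 unstimulated control samples and from 3 samples treated for 3 h with 100 ng/ml LPS, a bacterial cell wall component. Whether replicates are separate animals, separate cultures or repeat preparations is not labelled, so each p-value describes the spread among these libraries, part of which may be technical.

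miR-146a and miR-146b are known as feedback regulators of Toll-like receptor 4 signalling. LPS activates this receptor, the adaptor protein Myd88 passes the signal to the kinase Irak1 and the ubiquitin ligase Traf6, and these activate the transcription factor NF-kB. NF-kB induces the miR-146a gene, and the 5p arms of both family members pair with Irak1 and Traf6 transcripts and restrain their translation, which closes the loop. A miRNA hairpin is cut by Dicer into a duplex of both arms. Usually 1 arm is loaded into an Argonaute protein and kept (the guide), and the other is degraded (the passenger). The 5p arms are regarded as the guides of both hairpins. The bases that decide target pairing are mainly bases 2 to 8 from the 5′ end, the seed.

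The mature sequences, from RefSeq on the mouse assembly GRCm38.p6, are shown because the seed groups the arms and the 3′ bases are what separates both 5p arms in sequencing reads. Capitals mark the seed.
mmu-miR-146a-5p: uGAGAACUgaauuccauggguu
mmu-miR-146b-5p: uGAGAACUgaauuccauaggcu
mmu-miR-146a-3p: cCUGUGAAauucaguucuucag
mmu-miR-146b-3p: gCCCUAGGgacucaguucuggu

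Both 5p arms carry the seed GAGAACU, and among the 1623 names with a RefSeq mature sequence no other miRNA had it. They are identical in 20 of 22 positions, and the first 17 bases from the 5′ end are the same. They differ by the substitutions G18A and U21C, with the base of miR-146a first and positions counted from 1 at the 5′ end. The 3p arms are less alike. Set against each other from the first base without gaps, they match in 4 of 22 positions. This misses their longest shared stretch, 8 bases (ucaguucu) that start at different positions in the 2 arms. They have different seeds, CUGUGAA and CCCUAGG, and share neither seed with any other named miRNA.

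In the hairpins, shown so that the position of each arm can be seen, capitals mark the 5p arm and then the 3p arm.
Mir146: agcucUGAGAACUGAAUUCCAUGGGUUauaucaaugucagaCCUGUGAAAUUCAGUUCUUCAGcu
Mir146b: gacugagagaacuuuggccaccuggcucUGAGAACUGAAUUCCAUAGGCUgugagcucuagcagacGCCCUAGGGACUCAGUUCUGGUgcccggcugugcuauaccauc

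The miR-146a hairpin (gene symbol Mir146, 65 bases) lies on the minus strand of chromosome 11 at chr11:43374397-43374461. No other gene in the RefSeq table spans it, and the nearest protein-coding genes are Pttg1 at 45.8 kb and Atp10b at 112.1 kb. The miR-146b hairpin (Mir146b, 109 bases) lies on the plus strand of chromosome 19 at chr19:46342762-46342870, inside the span of the long noncoding RNA gene Gm36493. The nearest protein-coding genes are Cuedc2 at 4.1 kb and Mfsd13a at 14.0 kb. The gene of the NF-kB subunit Nfkb2, which is not the nearest, ends 30.4 kb from it. The table gives gene spans only, so exon and intron positions are not stated.

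The libraries held 3280688 to 4312555 miRNA counts, with LPS replicate 1 the smallest, and 684 to 714 detected miRNAs. Levels below are CPM, counts relative to the size of their library, scaled with the TMM factors of edgeR, which ranged from 0.960 to 1.053. Of 6 miRNAs fixed as markers of myeloid cells, 5 had counts (miR-142a-3p had 0). They summed to 271139 to 313023 CPM, here on raw library totals, in controls and 280560 to 314934 after LPS. Most of this sum was miR-22-3p, with TMM-scaled means of 233019 CPM in controls and 235119 after LPS. The means of miR-223-3p were 2279 and 2340 CPM. miR-155-5p, also on this list, was itself called higher after LPS (690 and 4634 CPM) but is a small part of the sum. Because the sum mainly follows the single miRNA miR-22-3p, it is a weak measure of myeloid content. Of 5 miRNAs listed for lymphocytes, cells that also hold miR-146a, 4 had counts. They summed to 170.0 to 200.6 CPM in controls and 176.6 to 216.7 after LPS. The other, miR-205-5p, had 0 counts. Its assignment to lymphocytes was not checked, so this 0 says nothing about these cells. Erythroid and endothelial markers summed to at most 5 and 1 counts in a library, stromal ones to 12 to 26, and epithelial ones to 268.8 to 309.0 and 237.5 to 297.8 CPM.

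The family was represented almost wholly by 1 arm. Over all 6 libraries miR-146a-5p had 431102 counts, miR-146a-3p 637, miR-146b-3p 89 and miR-146b-5p 14. miR-146a-5p was 11th of 357 tested miRNAs by mean level, miR-146a-3p 195th and miR-146b-3p 317th, while miR-146b-5p had too few counts to be tested. Together the 4 arms took 1.74% ± 0.0860 (SD, n = 3) of the counts in control libraries and 1.94% ± 0.251 of those after LPS, a difference within the spread of the libraries (two-sided exact permutation p = 0.3, adjusted p = 0.5 over 5 family quantities, smallest possible p 0.1). The difference was 0.197 percentage points, 0.0732 without LPS replicate 1 and 0.324 without LPS replicate 2.

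miR-146a-5p, the arm that targets Irak1 and Traf6, stood at 17522, 15881 and 17864 CPM in the control libraries. After LPS it stood at 22638, 16421 and 20234 CPM. The groups overlapped, because LPS replicate 2 fell among the controls, while LPS replicates 1 and 3 lay above them. In bulk RNA a change in the share of cells that hold a miRNA and one in its amount per cell cannot be told apart. The means were 17089 ± 1060 and 19764 ± 3135 CPM (SD, n = 3). The log2 fold change was 0.21 (SE 0.12) and did not pass the test (edgeR quasi-likelihood, Benjamini-Hochberg adjusted p = 0.664). Its 95% interval ran from a fold of 0.954 to one of 1.40, which leaves room for a modest rise and not for one of the size seen in the 3p arm. Counting error was 0.373% of this level, against an SD of 6.20% in controls and 15.9% after LPS, so the precision was set by the libraries and not by depth. Without LPS replicate 1, the library with the highest level, the log2 fold change was 0.06, and without LPS replicate 2 it was 0.33.

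By level its neighbours were miR-222-3p (19872 CPM over all libraries), an arm known to restrain the cell cycle inhibitor p27, and let-7i-5p (17603 CPM), a let-7 family member reported to target Tlr4. Over all libraries the 3 differed by less than the SD of the LPS libraries of miR-146a-5p, so their order in that mean is not resolved. By group, miR-222-3p had the lowest mean of the 3 in controls (16353 CPM) and the highest after LPS (23390 CPM). Raw counts are not corrected for ligation bias of single miRNAs, and the comparison between miRNAs is one of counts.

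miR-146a-3p, the passenger arm of the same hairpin, rose after LPS. The control libraries held 22, 47 and 42 counts of it. After LPS there were 169, 179 and 178. On the CPM scale these were 5.22, 11.4 and 10.2 in controls and 53.5, 43.9 and 45.2 after LPS. Every LPS library lay above every control library, with control replicate 1 the lowest of all. Full upward separation of this kind was seen in 8.68% of the 357 tested miRNAs. The means were 8.94 ± 3.28 and 47.5 ± 5.23 CPM (SD, n = 3), a log2 fold change of 2.41 (SE 0.26, 95% interval 1.83 to 2.99, edgeR adjusted p = 0.000326). This was the 3rd highest fold change of all tested miRNAs. A call in the upward direction was made for 3.64% of tested miRNAs, 13 of 357. The call of miR-146a-3p was kept under all 14 alternatives, with adjusted p-values up to 0.00269.

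**Figure D1:**
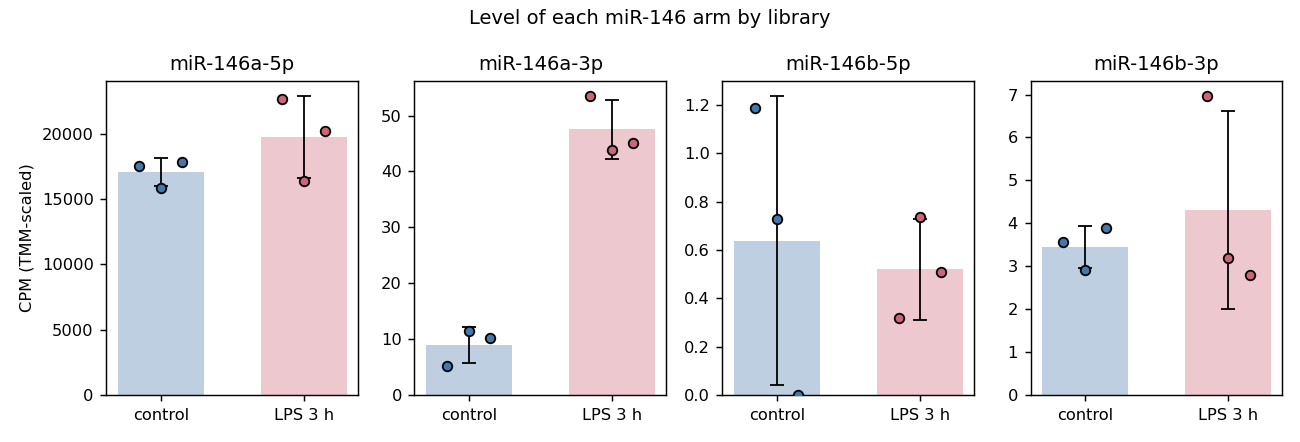
Level of each arm in TMM-scaled CPM in the 3 control (blue) and 3 LPS (red) libraries, each panel with its own axis from 0. Points are libraries, bars the mean and error bars the SD; the groups are separate for miR-146a-3p (5.22 to 11.4 against 43.9 to 53.5 CPM) and overlap for the other 3 arms.

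miR-146b-3p, whose seed has no match in the family, had 15, 12 and 16 counts in controls and 22, 13 and 11 after LPS. In CPM these were 3.56, 2.91 and 3.88, and then 6.97, 3.19 and 2.79. LPS replicate 1 was the highest and LPS replicate 3 the lowest of the 6, so the groups overlapped. The means were 3.45 ± 0.493 and 4.31 ± 2.30 CPM (SD, n = 3), with a log2 fold change of 0.27 (SE 0.38, edgeR adjusted p = 0.943). The 95% interval of the fold ran from 0.672 to 2.18. Without LPS replicate 1 the log2 fold change was -0.24, so that library set its sign. In LPS replicate 1 all 3 tested arms were at their highest level.

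miR-146b-5p, which shares the seed of miR-146a-5p, was counted 5, 3 and 0 times in the control libraries. After LPS it was counted 1, 3 and 2 times. The 8 counts summed over controls had an exact 95% Poisson interval of 3.45 to 15.8, and the 6 counts summed over LPS libraries one of 2.20 to 13.1. These intervals cover counting error only. No change was detectable at this depth, and the arm did not pass the filter on low counts. The library with 0 counts was control replicate 3. Its exact 95% interval reached 3.69 counts, or 0.920 CPM on the raw library total. The counts of miR-146a-5p were 30793 times those of miR-146b-5p over all libraries. Per library, miR-146b-5p was 0 to 0.00677% of the counts that carry the shared seed.

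The arms of miR-146b were thus in the reverse order to those of miR-146a. In all 6 libraries miR-146b-3p had more counts than miR-146b-5p, the arm regarded as the guide. The 3p arm made up 75.0%, 80.0% and 100% of miR-146b counts in controls and 95.7%, 81.2% and 84.6% after LPS, on 13 to 23 counts per library. Exact binomial 95% intervals reached from 50.9% to 91.3% in control replicate 1 and from 79.4% to 100% in control replicate 3. The mean share was 85.0% ± 13.2 and 87.2% ± 7.53 (SD, n = 3, two-sided exact permutation p = 0.7, adjusted p = 0.7).

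How the authors assigned reads that fit several miRNAs is not given in the sources used here. A read of miR-146b-5p that ends before base 18 cannot be told from one of miR-146a-5p, and the other differing base is position 21. The same pattern of counts was looked at in other miRNAs with different names and the same first 17 bases, a length chosen because it is what the 5p arms of this family share. In 4 such pairs, this family included, both miRNAs have 1 locus each and the more abundant one was above 5 CPM. The less abundant partner had 10 or fewer counts in every library in 3 of them. These were miR-146b-5p, miR-18b-5p (0 to 4 counts, beside 800 to 1046 of miR-18a-5p) and miR-30e-3p (0 counts, beside 50 to 93 of miR-30a-3p). In the other, miR-27a-3p kept 10826 to 16031 counts beside miR-27b-3p. In 3 further groups above 5 CPM, where 1 of the miRNAs has 2 loci, the less abundant partner kept 10 to 17 counts (miR-29b-3p), 230 to 348 (miR-103-3p) and 370 to 469 (let-7a-5p). The part of read assignment in the count of miR-146b-5p was not tested. Adding the 14 counts to miR-146a-5p left its log2 fold change at 0.21.

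Whether both arms of the miR-146a hairpin changed equally was tested within each library. The 3p arm made up 0.0298%, 0.0718% and 0.0570% of miR-146a counts in the control libraries. After LPS it made up 0.236%, 0.267% and 0.223%. The groups did not overlap, and how often such a share separates in other hairpins was not counted. Among single tested miRNAs 16% separated in either direction. Exact binomial 95% intervals, which cover counting error only, ran from 0.0187% to 0.0451% in control replicate 1 and from 0.0527% to 0.0954% in control replicate 2, so these controls differed from each other by more than counting error. The mean share went from 0.0529% ± 0.0213 to 0.242% ± 0.0225 (SD, n = 3, two-sided exact permutation p = 0.1, the smallest possible, adjusted p = 0.25). In counts of the guide per count of the passenger, the ratio of mean levels was 1912 in controls and 416 after LPS.

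Across the 100 hairpins with both arms tested, limma was fitted to the log2 ratio of the scarcer arm to the more abundant one. For miR-146a this difference changed by 2.21 (SE 0.27, 95% interval 1.63 to 2.79, limma adjusted p = 1.28e-05). A gain of the less abundant arm was called in 9% of hairpins, and a change in either direction in 12%. The less abundant arm was called as lost in miR-27a (-2.01), miR-223 (-0.95) and miR-26b (-0.70). miR-146a ranked 2nd of the 100, between miR-155 (3.87), a miRNA of the same LPS response that restrains inhibitors of inflammatory signalling, and miR-125a (1.97), which is clustered with miR-99b and let-7e. The values by library were -11.6, -10.4 and -10.7 in controls and -8.71, -8.53 and -8.79 after LPS, with no overlap. How many other hairpins separate in this way was not counted. The miR-146b hairpin could not be fitted because its 5p arm was not tested.

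The gain of the passenger was small in absolute level. It amounted to 38.6 CPM, which is 0.226% of the control level of miR-146a-5p. A gain of the same size in the guide arm would lie inside its SD of 6.20% in controls, so these counts cannot show whether there was one. The cause of the arm difference was not tested.

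**Figure D2:**
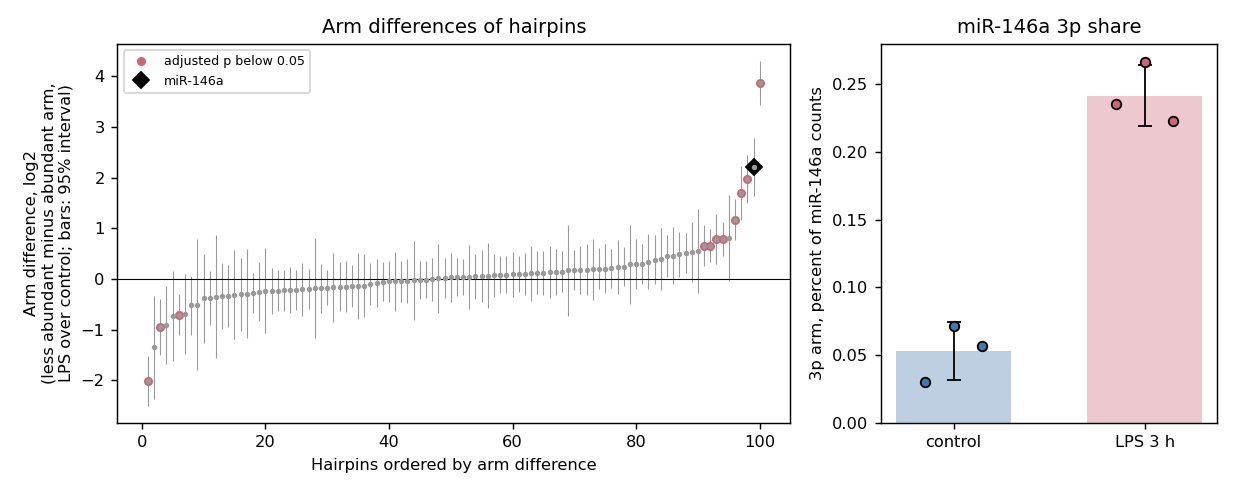
Left, the change after LPS in the log2 level of the less abundant arm relative to the abundant arm for 100 hairpins in order of size, with 95% intervals; right, the 3p share of miR-146a counts per library with mean and SD (control blue, LPS red). miR-146a (diamond, 2.21) ranks next after miR-155 (3.87), and its 3p share is 0.0529% in controls and 0.242% after LPS.

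The 3p arms of the 2 hairpins were set against each other as well. Summed over libraries there were 2.58 counts of miR-146a-3p per count of miR-146b-3p in controls and 11.4 after LPS. The log2 ratio by library was 0.55, 1.97 and 1.39 in controls and 2.94, 3.78 and 4.02 after LPS, so the groups did not overlap. How often ratios of other miRNAs separate was not counted. For single tested miRNAs it was 16% in either direction. The ratio largely restates the separation of miR-146a-3p, since the groups overlapped for miR-146b-3p alone. The mean rose by 2.28, from 1.30 ± 0.713 to 3.58 ± 0.565 (SD, n = 3), and the two-sided exact permutation p was 0.1, the smallest possible (adjusted p = 0.25). The difference of the means exceeded both SDs, and with 3 libraries against 3 this permutation test gives no smaller p.

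**Figure D3:**
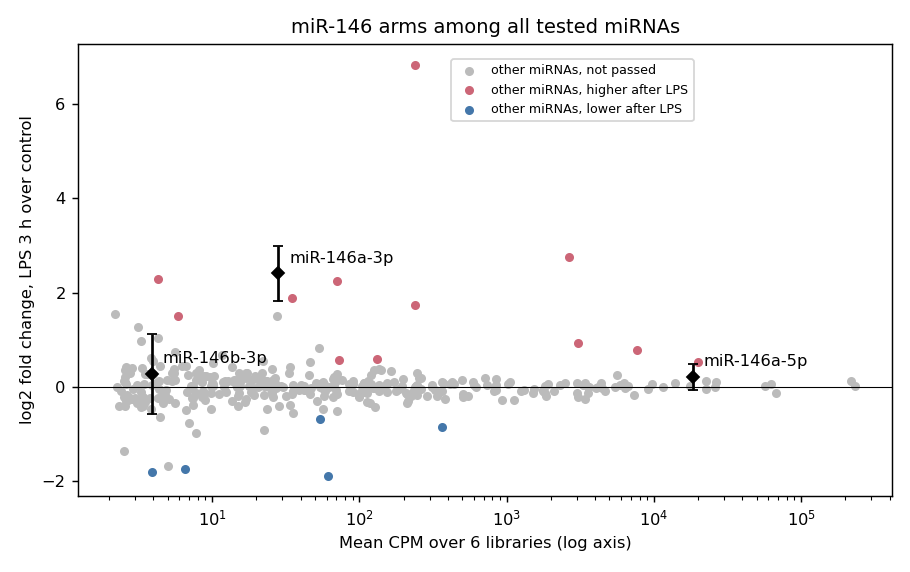
Log2 fold change of LPS over control against mean CPM (log axis) for all 357 tested miRNAs; black diamonds are the 3 tested miR-146 arms with 95% intervals, red and blue points other miRNAs called higher or lower by edgeR. miR-146a-3p (2.41) lies among the called miRNAs, and miR-146a-5p (0.21) and miR-146b-3p (0.27) have intervals that include 0.

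The miRNAs whose profile over the 6 libraries was most like that of each arm were found by the root mean square (RMS) difference of log2 CPM after subtraction of the control mean, among those with a mean of at least 5 CPM. For miR-146a-3p they were miR-125a-3p (RMS difference 0.47), let-7e-3p (0.48), miR-222-5p (0.66) and miR-29b-1-5p (0.95). All 4 were called higher after LPS, with log2 fold changes of 2.24, 1.89, 1.73 and 1.51. For miR-146a-5p they were miR-378c (0.063), miR-18a-3p (0.105), miR-330-5p (0.109) and miR-467c-5p (0.110), none of which passed the test. For miR-146b-3p they were miR-5107-5p (0.235), let-7a-5p (0.261), miR-194-5p (0.264) and miR-29c-3p (0.265), again with none past the test. The likeness is a description over 6 libraries that share the treatment. Profiles were matched on the change after LPS as well, so which of these miRNAs passed the test follows largely from the selection.

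Beside the family, 26 other arms of miRNAs that macrophages are reported to induce upon LPS were examined. Of the 22 tested, 10 rose, none fell and 12 did not pass, with a median log2 fold change of 0.55, where that of all 357 tested was 0.01. Calls in either direction were made for 5.04% of tested miRNAs. This list was drawn up with earlier results of these data known and is no independent evidence of its direction. Of the 10 that rose, 7 were the less abundant arm of their hairpin, as miR-146a-3p is. These were miR-155-3p (6.85), miR-125a-3p (2.24), let-7e-3p (1.89), miR-222-5p (1.73), miR-221-5p (0.92), miR-21a-3p (0.78) and miR-99b-3p (0.58). The abundant arms that rose were miR-155-5p (2.75), miR-455-5p (2.28) and miR-222-3p (0.52). The share of less abundant arms among all tested miRNAs was not counted, and less abundant arms of other hairpins were called as lost. Like miR-146a-5p, the abundant arms miR-125a-5p (0.24), let-7e-5p (0.17), miR-221-3p (0.13), miR-21a-5p (0.11) and miR-99b-5p (0.07) did not pass. Of those that did not pass, the largest absolute log2 fold changes were those of miR-455-3p (1.53), miR-147-3p (1.51), miR-212-3p (-0.42) and miR-187-3p (-0.27).

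The other list held miRNAs reported to target components of Toll-like receptor and NF-kB signalling, as the miR-146 5p arms do. Of 20 such miRNAs besides the family, 16 were tested, 1 rose, none fell and 15 did not pass, beside 3.64% called higher and 5.04% called in either direction among all tested miRNAs. A single call among 16 is near that background. The median log2 fold change was -0.02. The one that rose was miR-155-5p, which targets Inpp5d and Socs1, from 690.3 ± 411.8 to 4634 ± 498.0 CPM (SD, n = 3). It reached 23.4% of the level of miR-146a-5p after LPS. Among those that did not pass were miR-147-3p (1.51, edgeR adjusted p = 0.0760), which was called without LPS replicate 2 (0.00124), with DESeq2 (0.00105), with a replicate block (0.0112) and with no filter (8.52e-10) and reached 0.266 in other alternatives, miR-212-3p (-0.42) and miR-187-3p (-0.27). The Nfkb1-targeting miR-9-5p and the Tirap-targeting miR-145a-5p had 0 counts in all 6 libraries.

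**Figure D4:**
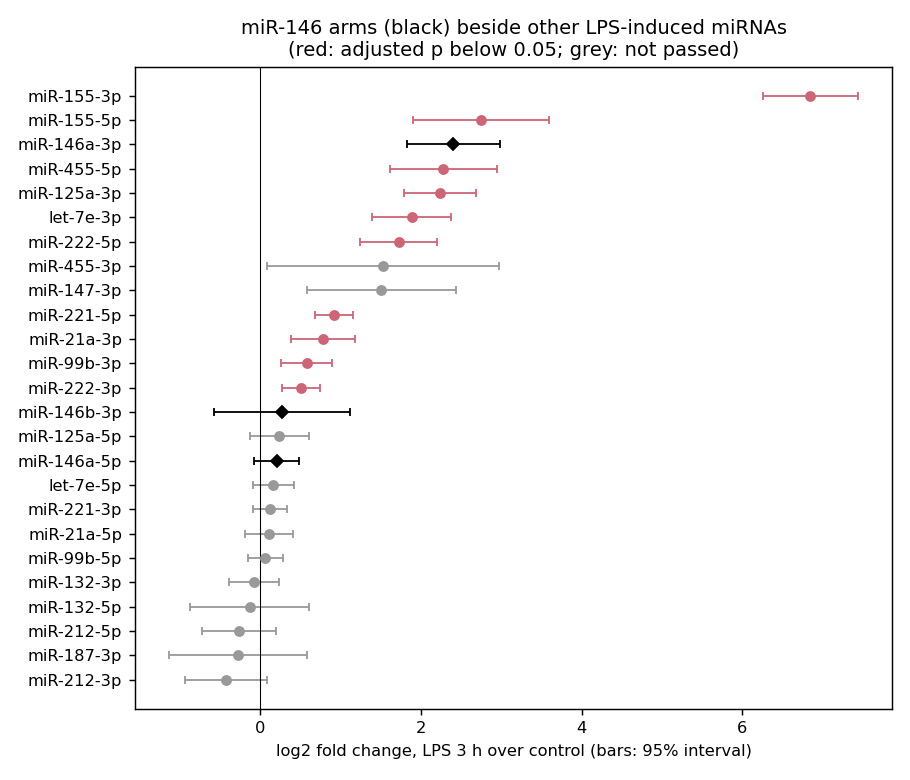
Log2 fold change of LPS over control with its 95% interval for the 25 tested arms of miRNAs reported as LPS-induced, the miR-146 arms as black diamonds, called arms red and others grey. miR-146a-3p (2.41) follows miR-155-3p (6.85) and miR-155-5p (2.75), while miR-146b-3p and miR-146a-5p lie with the arms that did not pass.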

How the data were processed

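The authors deposited raw counts as whole numbers for each mature miRNA, in 6 tables without a header. Per the labels' protocols, total RNA was turned into libraries with a TruSeq Small RNA kit. The submitters' processing notes name the assembly GRCm38.p1 (mm10), the aligner Novoalign and SAMtools 0.1.19. How reads were counted, with which annotation, and what was done with ambiguous ones is not given in the sources used here. The 2 samples of a chromosome conformation assay were not analysed here.

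Counts of the whole table were fitted with edgeR 4.0.16 in R 4.3.3 (quasi-likelihood F test, TMM factors, filterByExpr with a minimum count of 10). P-values were Benjamini-Hochberg adjusted over the 357 miRNAs that passed, and a call needed an adjusted p below 0.05. Log2 fold changes are LPS over control. Arm differences were fitted with limma 3.58.1 on log2 CPM (prior count 2). For single values per library, exact permutation tests (two-sided) were used. Alternatives were DESeq2 1.42.0, limma-voom, other scalings and filters, a replicate block and leaving out each library. On simulated counts with 364 miRNAs tested, the edgeR fit recovered 75% of changes with a log2 fold change of 1, and 100% of those of 2.

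The design allowed a ratio of miR-146a-5p to miR-146b-5p, which a count of 0 made undefined, so a share was used. Named miRNAs were the 4 arms, those with the same seed, the nearest profiles and levels, and from the lists each called arm and a few with the largest changes. Members and lists were chosen with earlier results of these data known. Replicates differed by more than counting noise (lowest chi-square over its degrees of freedom 53.0).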

Additional observations from a re-analysis of the deposited data

How the results depend on the processing

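The log2 fold change of miR-146a-3p stayed between 2.09 and 2.63 over 14 alternatives and the arm difference of miR-146a between 1.87 and 2.46 over 10, all past the threshold. miR-146a-5p stayed between 0.06 and 0.33 and never passed. miR-146b-3p ranged from -0.24 (without LPS replicate 1) to 0.56 when 1 library was left out, and had no value with a minimum count of 50, which removed it. miR-146b-5p was tested only with no filter (log2 fold change -0.23, SE 0.83, edgeR adjusted p = 0.973).

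The number of miRNAs called higher was 13, and 8 with upper-quartile factors, 15 with DESeq2 and 18 with no filter (9 to 13 with 1 library left out). The number called lower was 5, and 8 with no filter, 3 with a minimum count of 50 and 2 to 6 with 1 library left out. In the list of miRNAs that target Toll-like receptor signalling 1 rose, and 2 rose with DESeq2, with no filter and with the replicate block, and 1 to 2 with 1 library left out. The change in the 3p share of miR-146b was 2.17 percentage points and -2.83 to 9.67 with 1 library left out. That in the share of miR-146b-5p among counts with the shared seed was -0.000991 and -0.00288 to 0.000503. The causes were not tested.

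The deposited tables are numbered alike in both groups, and whether a number marks 1 animal is not stated. Deviations of same-numbered libraries correlated at 0.0247, 0.144 and -0.0397 (numbers 1 to 3), which does not show pairing and does not settle it. With the replicate block miR-146a-3p had a log2 fold change of 2.43 and miR-146a-5p of 0.20, and no call of a miR-146 arm changed. Depth limited the miR-146b arms most, with 14 and 89 counts in all.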
